A study of Homo sapiens with 6 samples.

Results

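The immunoglobulin-type cell adhesion molecules followed here were 10 genes (ICAM1, ICAM2, ICAM3, PECAM1, L1CAM, ALCAM, MCAM, BCAM, CADM1 and NRCAM), out of 19775 genes measured. They were chosen by name, with earlier results of these data known. Every probe set that the platform annotation assigned to 1 of these symbols was taken, which gave 28 of 41091 such probe sets. A probe set is a group of short probes for 1 transcript region on the Affymetrix Human Genome U133 Plus 2.0 array, and each gene was represented by its brightest probe set. The cells were MDA231-LM2, a lung-metastatic derivative of the human breast cancer line MDA-MB-231, so that both groups consisted of 1 cell line. In the monolayer group (3 cultures), attached cells were kept for 48 h in DMEM with 10% fetal bovine serum. In the oncosphere group (3 cultures), cells were kept for 4 days on ultra-low adhesive plastic in HuMEC medium, to which 2% B27, bFGF at 10 ng/ml, EGF at 20 ng/ml and insulin at 5 μg/ml had been added. The comparison addressed how gene expression in floating spheres differs from that in attached cells. Attachment, medium and time in culture differed together between the groups, and their parts in any change cannot be told apart. Intensities are averages over a whole culture, so that fewer expressing cells and less RNA per cell cannot be told apart either.

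Cell adhesion molecules of this type are membrane glycoproteins whose outer part is built from immunoglobulin-like domains, mostly followed by a single membrane span and a short cytoplasmic tail. Some bind their own kind on a neighbouring cell, and others bind integrins, laminin or other family members, so that they serve contacts between cells, between cells and matrix, and between tumor cells, leukocytes and endothelium. Their tails are linked to the cytoskeleton through ezrin-type proteins, ankyrins or band 4.1 proteins, and the outer parts can be cut off by membrane proteases.

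The transcripts of ICAM1, PECAM1, CADM1, L1CAM and NRCAM were more abundant in oncospheres than in monolayer, and those of ALCAM, MCAM and ICAM2 were less abundant. The increases lay between 1.74-fold and 3.10-fold and the decreases between 1.47-fold and 2.21-fold. ICAM3 and BCAM did not pass the test (limma with Benjamini-Hochberg adjustment over all probe sets, called at an adjusted p below 0.05). Thus, 5 of 10 members rose, where 17.3% of all genes were called higher, and 3 fell, where 17.5% were called lower (34.9% in either direction). Since the members were chosen with earlier results of these data known, this contrast is a description and not a test. The members were also brighter, as 0 of 10 lay below the array median in both groups, against 6805 of 19775 genes. With a minimum change of 1.5-fold, 5 members rose and 2 fell, against 12.8% of all genes in either direction. The 3 oncosphere arrays did not overlap with the 3 monolayer arrays in 8 members, as in 46.9% of all genes. The median log2 change was 0.45 over the members and -0.02 over all genes. Among the 28 probe sets, 12 rose and 6 fell, against 15.7% and 16.6% of all probe sets with 1 symbol. In no member were probe sets called in opposite directions (0 of 10), except that with a background level subtracted a dim MCAM probe set was called higher.

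**Figure D1:**
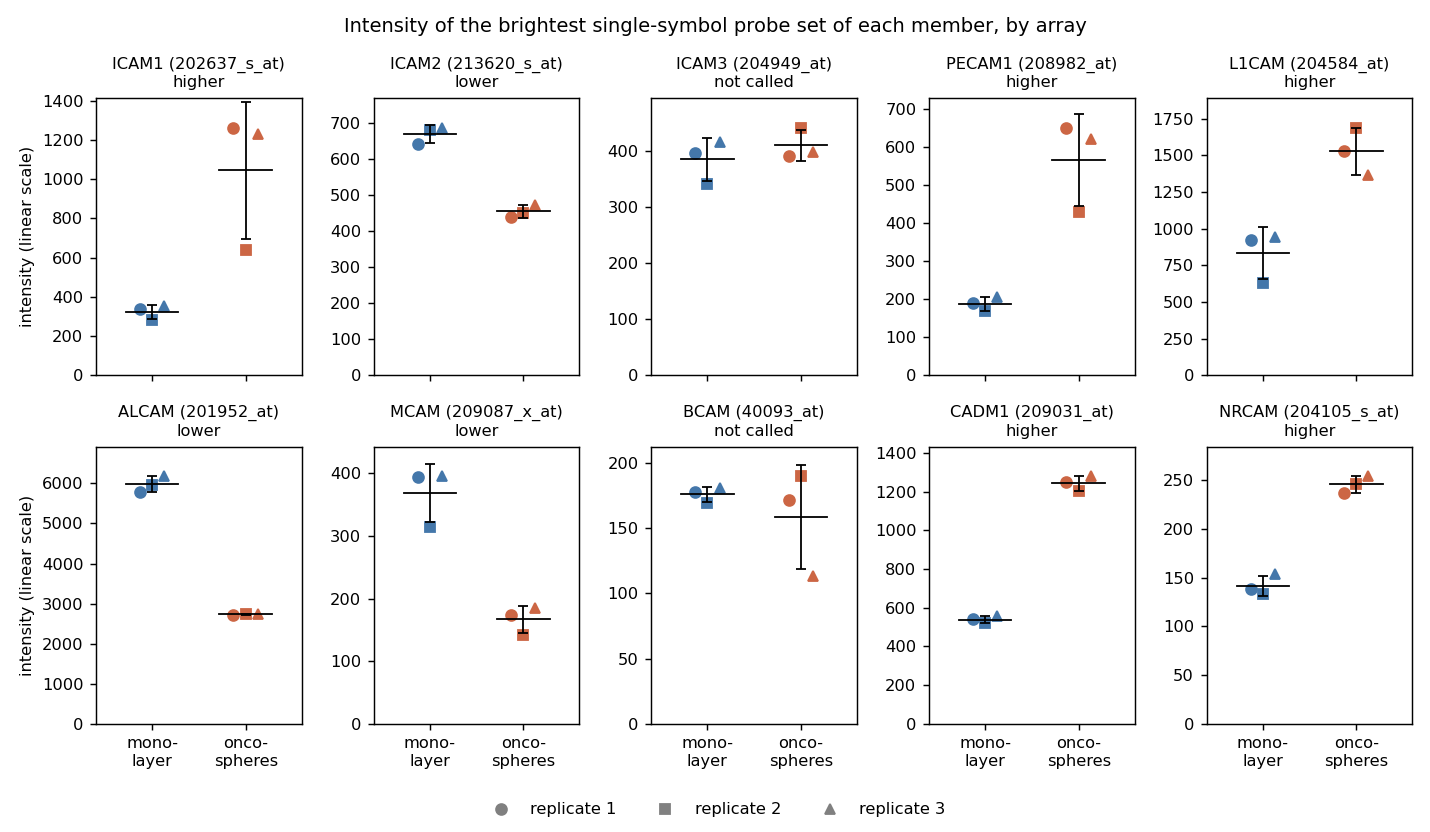
Intensity (linear scale, from 0) of the brightest probe set with 1 symbol for each of the 10 members. Points are arrays, shaped by replicate number, and the bars show the mean and SD of 3 arrays in each group. ICAM1, PECAM1, L1CAM, CADM1 and NRCAM were higher in each oncosphere array than in any monolayer array, ICAM2, ALCAM and MCAM were lower, and the groups overlapped for ICAM3 and BCAM. Each panel has its own scale, since brightness cannot be compared between probe sets.

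Arrays of 1 group correlated with r between 0.993 and 0.996 over all probe sets, and arrays of different groups with r between 0.966 and 0.973. The oncosphere 2 array stood apart on the second principal component (6.89% of the variance), so that the members are also given without it where it mattered. The label of the cells was compared with markers of this line. Of 13 genes listed as expressed in this line, 0 lay below the array median in both groups. In oncospheres, 2 of them rose and 7 fell (69.2% called, against 34.9% of all genes). The largest fall was that of AXL (log2 change -1.89), CAV1 fell by 0.48 on the log2 scale, and the largest rise was that of S100A4 (1.07). VIM, CD44 and CAV1 were far brighter than the median probe set (means of 20145, 5407 and 8155 in monolayer, against array medians between 112.6 and 114.1), and CDH1 and PGR lay below it (80.2 and 72.7). However, only 4 of 12 genes listed as low in this line lay below the array median in both groups, and the brightest of the others were KRT19 (991), EPCAM (561) and GATA3 (471).

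The 250 bases before the annotated start are shown for the member that rose most, ICAM1, and for the members that fell most, MCAM and ALCAM (RefSeq, GRCh38.p14, 5′ to 3′ on the strand of the gene). ICAM1 lies at chr19:10270870-10271119 on the plus strand, ALCAM at chr3:105366659-105366908 on the plus strand and MCAM at chr11:119317131-119317380 on the minus strand. Capitals mark the motifs searched on both strands, which were a kB-type motif (GGANNNTCC), the gamma-activated sequence (TTCNNNGAA), an AP-1 site (TGANTCA), the core of a hypoxia response element (ACGTG), the Sp1 box (GGGCGG, whose matches may overlap) and the TATA box (TATAAA).
ICAM1: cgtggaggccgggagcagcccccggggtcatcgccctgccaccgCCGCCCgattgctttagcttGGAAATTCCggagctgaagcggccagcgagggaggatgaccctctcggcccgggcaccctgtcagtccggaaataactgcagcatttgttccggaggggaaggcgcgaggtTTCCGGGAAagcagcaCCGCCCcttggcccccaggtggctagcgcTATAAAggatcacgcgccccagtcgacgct
ALCAM: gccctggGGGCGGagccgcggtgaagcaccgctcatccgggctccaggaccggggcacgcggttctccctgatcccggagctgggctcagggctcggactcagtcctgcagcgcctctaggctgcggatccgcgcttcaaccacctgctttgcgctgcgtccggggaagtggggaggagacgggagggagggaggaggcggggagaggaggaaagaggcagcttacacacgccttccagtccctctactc
MCAM: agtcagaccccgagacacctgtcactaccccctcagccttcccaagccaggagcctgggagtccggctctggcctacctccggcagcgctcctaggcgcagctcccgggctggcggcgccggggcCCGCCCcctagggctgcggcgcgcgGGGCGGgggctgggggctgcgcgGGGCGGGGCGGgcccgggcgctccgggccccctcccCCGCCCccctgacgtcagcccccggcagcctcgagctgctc
The ICAM1 promoter is known to bind NF-kB and STAT factors in cells exposed to inflammatory cytokines. Its sequence held a kB-type match at -186 to -178, a gamma-activated sequence match at -75 to -67 and a TATA box at -30 to -25, counted back from the first base of the transcript. Of 35116 promoters of this length, 7.8% held the kB-type motif, 6.57% the gamma-activated sequence and 10.7% the TATA box. ALCAM and MCAM held Sp1 boxes (1 and 5 matches), a motif found in 42.6% of all promoters. Each of the 7 members with a listed promoter held it before at least 1 start, but ICAM3 and NRCAM before only 1 of 3. These members had 13 starts, so that a count by gene and the share of promoters are not alike. GC content was 68.8% for ALCAM and 79.6% for MCAM, against a median of 58.0% over all promoters. No promoter was listed for PECAM1, ICAM2 or CADM1. The AP-1 site was found in 6.57% of promoters and, among the members, in 1 of 3 NRCAM starts, and the hypoxia core in 18.5% and in 1 of 3 ICAM3 starts. A match is only a run of letters and was not tested for binding here.

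The intercellular adhesion molecules ICAM1, ICAM2 and ICAM3 are ligands of the leukocyte integrin LFA-1. ICAM1 rose, ICAM2 fell and ICAM3 was not called. For ICAM1, which leukocytes use to attach to and cross inflamed endothelium, intensities were 337, 283 and 351 in monolayers 1 to 3 and 1262, 640.2 and 1229.8 in oncospheres 1 to 3. Each oncosphere array lay above each monolayer array, but oncosphere 2 was much nearer to the monolayers than the others. The mean rose from 324 ± 35.8 to 1044 ± 350.0 (SD, n = 3 each), a 3.10-fold increase (log2 change 1.63, SE 0.24, limma adjusted p = 0.00132). The other ICAM1 probe sets gave 2.60-fold and 2.56-fold increases (limma adjusted p = 0.00864 and 0.00648). Without the oncosphere 2 array, the increases were 3.86-fold, 3.39-fold and 3.32-fold. All ICAM1 probe sets are of the _s_at kind, which can match several transcripts.

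ICAM2, which is present on resting endothelium and some leukocytes, changed the other way and by less. Its brighter probe set gave 640.1, 681 and 686 in monolayers and 439.6, 449.6 and 472 in oncospheres, with little spread within either group. From 669 ± 25.1, the mean fell 1.47-fold to 454 ± 16.7 (SD, n = 3 each, log2 change -0.56, SE 0.06, limma adjusted p = 2.43e-04). The other ICAM2 probe set fell by 0.46 on the log2 scale (limma adjusted p = 6.01e-04).

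ICAM3, which is known mainly from leukocytes, was measured by 1 probe set, and its arrays overlapped between groups. Values were 395, 341 and 416 in monolayers and 390.3, 441 and 397 in oncospheres. The log2 change was 0.10 with a 95% interval from -0.11 to 0.30 (limma adjusted p = 0.503), so that the interval left out changes of the size measured for ICAM1 or ICAM2.

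PECAM1 (CD31) is an adhesion molecule of endothelium, platelets and leukocytes that binds its own kind at the borders of endothelial cells. It rose in 4 of its 5 probe sets. The brightest gave 189.6, 169 and 205 in monolayers and 652, 429 and 622 in oncospheres, again with oncosphere 2 lowest of its group. The mean rose 2.98-fold, from 188 ± 18.1 to 568 ± 121 (SD, n = 3 each, log2 change 1.58, SE 0.16, limma adjusted p = 1.65e-04). The other called PECAM1 probe sets rose 1.99-fold to 2.49-fold. With a background level subtracted, the log2 change of the brightest PECAM1 probe set moved from 1.58 to 2.01. Those of the other called ones moved from 1.32 to 1.94, from 1.23 to 2.05 and from 0.99 to 1.46. The remaining PECAM1 probe set (69.6 in monolayer and 79.2 in oncospheres) lay below the array median and was not called (log2 change 0.19, limma adjusted p = 0.162). Without the oncosphere 2 array, the increase of the brightest PECAM1 probe set was 3.40-fold.

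Since PECAM1, ICAM2 and MCAM also mark endothelium, markers of other cell types were measured beside them. Over all genes, 34.9% were called in either direction. Of 15 endothelial markers, 0 rose and 2 fell, and their summed intensity was 2303 to 2463 in monolayer arrays and 2073 to 2116 in oncosphere arrays. The defining endothelial genes CDH5 (70.03 and 70.8, means of monolayer and oncospheres) and VWF (96.1 and 96.6) lay below the array median in both groups. The brightest endothelial marker was ROBO4 (603 and 550.3), which was not called, and ESAM, an immunoglobulin-type molecule of endothelial junctions, fell 2.31-fold (398 to 172). The other endothelial fall was that of KDR, 1.42-fold (123 to 87.0), which was called without any 1 array as well (limma adjusted p at most 0.00684). Of 13 leukocyte markers measured, 1 rose and 2 fell, with summed intensities of 1458 to 1573 in monolayer and 1467 to 1488 in oncospheres. The marker that rose was CD14, 1.43-fold (134 to 193), and it was called without any 1 array (limma adjusted p at most 0.0281). Both falls, of ITGAM and CD8A, were lost without 1 array (limma adjusted p = 0.0554 without oncosphere 1 and 0.111 without oncosphere 3). PTPRC (CD45) was at 79.5 and 71.4, and the brightest leukocyte marker, CD79A, at 186 and 185, was not called. Of 12 neural and Schwann cell markers, 3 rose and 1 fell, and their summed intensity was 1891 to 2041 in monolayer and 2233 to 2346 in oncospheres. Of these, S100B rose 2.13-fold (79.9 to 174, a log2 change of 1.09 that became 2.39 with a background level subtracted) and SNAP25 1.71-fold (199 to 341), and the brightest was MBP (661 to 802), whose call was lost without the oncosphere 2 array (limma adjusted p = 0.106). Both groups consisted of 1 cell line, with no neural cells in the design. A link between these markers and the changes of L1CAM and NRCAM was not tested.

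L1CAM and NRCAM belong to the L1 family, which guides growing axons, binds integrins and other immunoglobulin-type molecules and is anchored by ankyrins. Both rose. The bright L1CAM probe set gave 926, 629 and 944 in monolayers and 1528, 1689.7 and 1364.5 in oncospheres, and here oncosphere 2 was the highest array. The mean rose 1.86-fold, from 833 ± 177 to 1527 ± 163 (SD, n = 3 each, log2 change 0.89, SE 0.16, limma adjusted p = 0.00322). The low value of monolayer 2 added to this change, which was 1.63-fold without that array. The dim L1CAM probe set (122 in monolayer and 125 in oncospheres) was not called, with a log2 change of 0.03 and a 95% interval from -0.10 to 0.17. Its array values lay between 118 and 130.3.

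For NRCAM, intensities were 138, 133.3 and 153 in monolayers and 237, 247 and 254 in oncospheres, so that the groups were well separated. The mean rose 1.74-fold, from 141 ± 10.5 to 246 ± 8.72 (SD, n = 3 each, log2 change 0.80, SE 0.07, limma adjusted p = 9.03e-05). The second NRCAM probe set (87.5 and 95.7) lay below the array median and was not called. Even the brighter NRCAM probe set lay near the array median, and its log2 change was 1.25 once a background level had been subtracted.

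CADM1 (also TSLC1 or Necl-2), named as a suppressor of lung tumors, binds its own kind and nectin-type molecules between epithelial cells and the receptor CRTAM on lymphocytes. Its 3 bright probe sets agreed closely and varied little between arrays. The brightest gave 539.7, 519 and 559 in monolayers and 1251, 1202 and 1281 in oncospheres. The mean rose 2.31-fold, from 539.5 ± 20.0 to 1244.5 ± 39.5 (SD, n = 3 each, log2 change 1.21, SE 0.06, limma adjusted p = 6.22e-06). The other bright CADM1 probe sets rose 2.52-fold and 2.77-fold. In contrast, the 3 dim ones, with group means between 70.9 and 83.2, were not called, with log2 changes of 0.08 to 0.22.

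ALCAM (CD166), which binds its own kind and CD6 on T cells, fell in all 3 of its probe sets. Intensities of its bright probe set were 5791, 5969 and 6179 in monolayers and 2726, 2734 and 2737 in oncospheres. The mean fell 2.19-fold, from 5980 ± 194 to 2732 ± 5.38 (SD, n = 3 each, log2 change -1.13, SE 0.05, limma adjusted p = 6.08e-06). A second bright ALCAM probe set fell 2.15-fold, from 2097 ± 33.5 to 978 ± 65.4, and a dim ALCAM probe set 1.20-fold, from 109 ± 1.42 to 90.6 ± 3.01. The dim one lay below the array median in both groups, where low values are compressed, and its log2 change was -0.74 after background subtraction.

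MCAM (CD146), which marks endothelium and melanoma and binds laminin with an alpha-4 chain and WNT5A, also fell. Its brightest probe set with 1 symbol gave 394, 315 and 395 in monolayers and 173, 142 and 185 in oncospheres. The mean fell 2.21-fold, from 368 ± 46.3 to 167 ± 22.03 (SD, n = 3 each, log2 change -1.14, SE 0.12, limma adjusted p = 2.50e-04). With a background level subtracted, its log2 change was -1.58. This probe set is of the _x_at kind, which can match related transcripts. Without _x_at and _s_at probe sets, MCAM rested on a dim probe set that was not called (121 and 132, log2 change 0.12). In that dim probe set, each oncosphere array lay above each monolayer array. A further 4 probe sets were annotated to both MCAM and the microRNA gene MIR6756, which lies inside MCAM (chr11:119312950-119313012 within chr11:119308529-119317130, GRCh38.p14), and were left out by the rule. All 4 fell, by 1.84-fold to 2.23-fold. They too are of the _x_at or _s_at kind, so that every MCAM probe set that fell can match other transcripts. The brightest of them gave 1398, 1404 and 1356 in monolayers and 674, 967 and 659 in oncospheres. There oncosphere 2 was the highest of its group, whereas it was the lowest in the 4 other MCAM probe sets that fell.

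BCAM (Lutheran), a receptor for laminin with an alpha-5 chain, did not pass the test with either of its 2 probe sets. The brighter gave 178, 169.6 and 181 in monolayers and 172, 189.9 and 114 in oncospheres, and 1 oncosphere array lay far below the rest. The log2 change was -0.19 with a 95% interval from -0.58 to 0.20 (limma adjusted p = 0.493), and 0.04 without the oncosphere 3 array. The dimmer BCAM probe set had a log2 change of -0.07 (interval -0.19 to 0.05), and its groups did not overlap. With a background level subtracted it was called lower (log2 change -0.16, limma adjusted p = 0.0348), which made 7 member probe sets lower in place of 6.

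**Figure D2:**
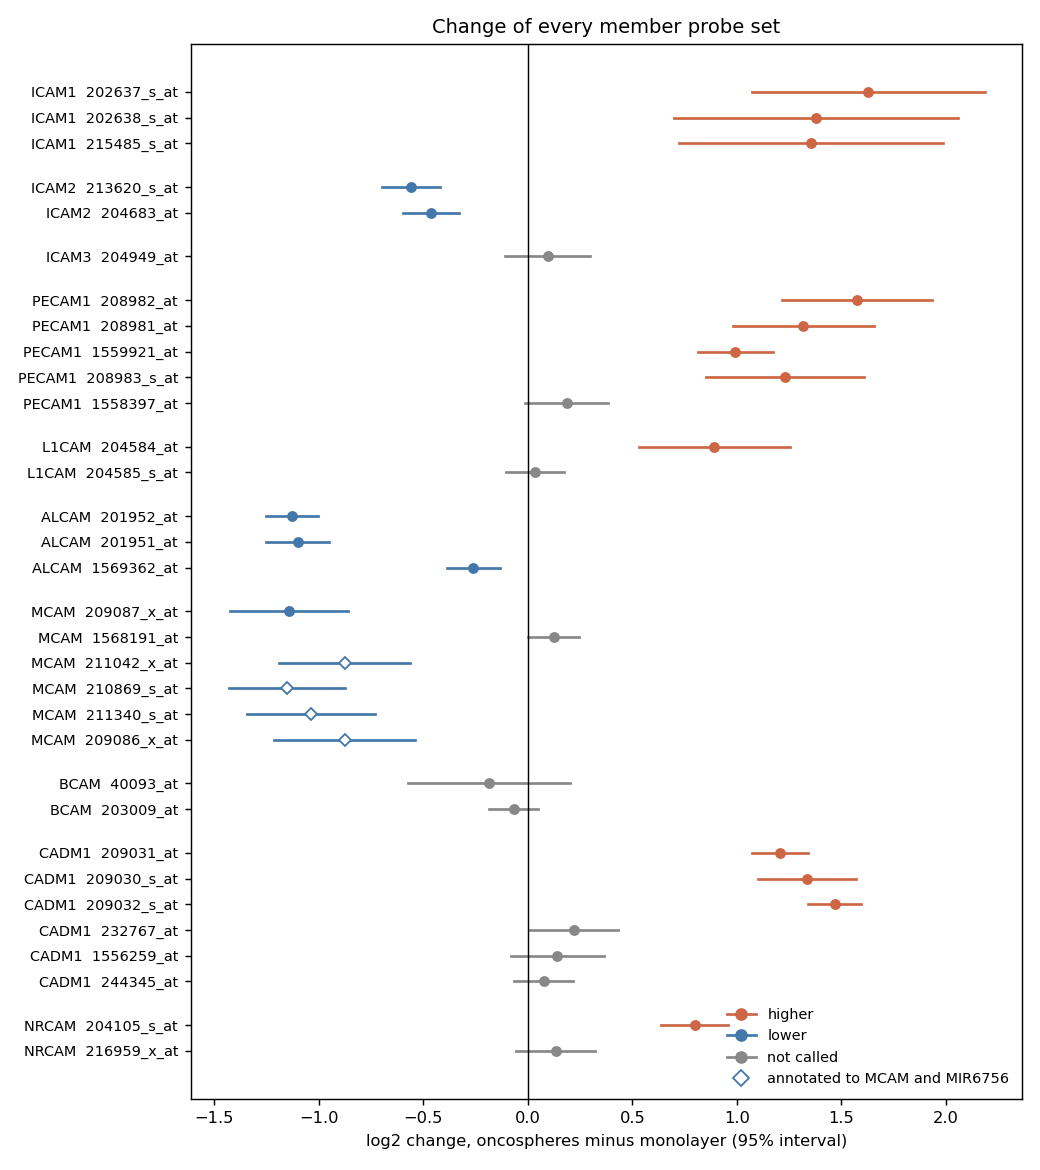
Log2 change (oncospheres minus monolayer) with its 95% interval for each of the 28 member probe sets and for the 4 annotated to both MCAM and MIR6756 (open diamonds), brightest first within each gene. Probe sets of 1 gene that were called lay on the same side of 0 in each member, and the dim probe sets of PECAM1, L1CAM, CADM1 and NRCAM lay near 0.

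Of the 10 member probe sets that were not called, 6 lay below the array median in both groups, as did 1 of the 18 called ones. Thus, for PECAM1, CADM1, L1CAM, MCAM and NRCAM, which each had called and not called probe sets, those not called were the dimmest of the gene. An RMA intensity near the lowest values on the array (between 48.0 and 51.0) is compressed, so that fold changes of dim probe sets are less certain in size. With a background level subtracted, each of the 8 members called before was called again, but the second ICAM1 probe set was not (limma adjusted p = 0.0667).

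The oncosphere cultures were not equally far from the monolayers. The position of oncosphere 2 was expressed as the share of the log2 distance from the mean of oncospheres 1 and 3 back to the monolayer mean, a measure chosen after the values had been seen. It was 0.49 to 0.65 in the ICAM1 probe sets and 0.15 to 0.45 in the called PECAM1 probe sets. In contrast, it was 0.04 to 0.18 in the bright CADM1 probe sets, 0.00 and 0.14 in the bright ALCAM probe sets and -0.01 in NRCAM. L1CAM (-0.28) and MCAM, by its called probe set with 1 symbol (-0.32), lay farther from monolayer in oncosphere 2 than in the other oncospheres. Among the probe sets annotated to both MCAM and MIR6756, the share was 0.51 in the brightest and -0.51 to -0.41 in the others. Among all 2536 genes called with at least 1.5-fold, the median share was 0.11 and the quartiles were -0.02 and 0.25. The 5 genes whose arrays were most like those of ICAM1, by the root mean square distance of centred log2 values over 6 arrays, were the cadherin CDH11 (0.04), the interferon-induced IFITM1 (0.12), the secreted CCN3 (0.13), SMIM14 (0.13) and PECAM1 (0.14). CDH11 gave 131, 109.6 and 130.1 in monolayers and 457, 245 and 454 in oncospheres, with the same low oncosphere 2.

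**Figure D3:**
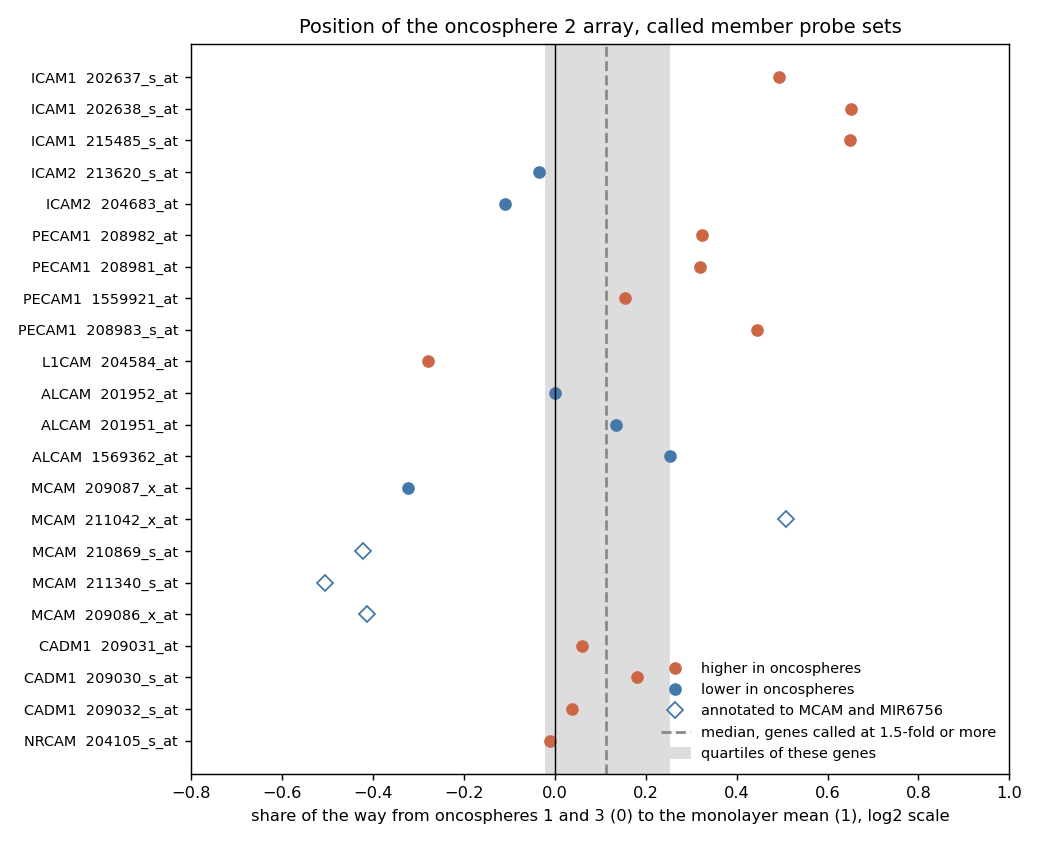
Position of the oncosphere 2 array for each called member probe set, on the x axis as the share of the log2 distance from oncospheres 1 and 3 (0) back to the monolayer mean (1). The dashed line and grey band are the median (0.11) and quartiles of 2536 genes called at 1.5-fold or more. ICAM1 lay at 0.49 to 0.65, and MCAM at -0.32 by its probe set with 1 symbol.

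The partners that the members bind outside the cell were listed as 43 genes, all measured. Of these, 13 rose, 5 fell and 25 were not called (41.9% called, against 34.9% of all genes, median log2 change -0.01). The largest changes were those of WNT5A, a secreted ligand of MCAM and Frizzled receptors, and of the laminin chains. WNT5A rose 5.21-fold, from 144 ± 5.17 to 752 ± 62.7 (SD, n = 3 each, limma adjusted p = 1.42e-06), and its log2 change of 2.38 became 3.11 with a background level subtracted. LAMA5, the laminin chain bound by BCAM, rose 4.42-fold with a wide spread, from 642, 361 and 1089.8 in monolayers to 5008, 1959.7 and 2227 in oncospheres (limma adjusted p = 0.00736). LAMC1 rose 2.47-fold and LAMA4, the laminin chain bound by MCAM, 2.44-fold, with 2 of 5 LAMA4 probe sets called higher. FGFR1, a receptor that L1-type molecules can engage, rose 2.17-fold, and EGFR fell 1.72-fold, with 6 of its 9 probe sets called lower. The subunits of LFA-1, the leukocyte receptor of the ICAMs, were chosen after their values had been seen. Of these, ITGAL was at 83.3 in monolayer and 81.8 in oncospheres and was not called. ITGB2 was at 240 and 204, a fall of 0.24 on the log2 scale that was called (limma adjusted p = 0.0497) but not without the monolayer 3 array (0.149). Only 1 of 3 ITGB2 probe sets was called lower.

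Among 65 measured genes for other immunoglobulin-type adhesion molecules, 12 rose, 9 fell and 44 were not called (32.3% called, against 34.9% of all genes, median log2 change -0.03). The largest changes were increases of VCAM1 (6.31-fold), an endothelial ligand of integrin alpha-4, and CRTAM (4.21-fold), a lymphocyte receptor that binds CADM1, and a decrease of NEGR1 (2.91-fold), a neuronal growth regulator. BSG (basigin, 2.88-fold) and CD96 (2.48-fold), a lymphocyte receptor for PVR, rose as well. Of the CD96 probe sets, 1 of 2 was called higher, and of those of NEGR1, 3 of 4 were called lower. In contrast to BSG (1529 to 4419), CRTAM (84.7 to 359) and CD96 (84.0 to 209) rose from below the array median and NEGR1 (261 to 89.4) fell to below it, where fold changes are less certain in size. With a background level subtracted, the log2 change was 3.78 in place of 2.07 for CRTAM, 2.83 in place of 1.31 for CD96 and -2.98 in place of -1.54 for NEGR1, against 2.96 for VCAM1, so that the order of these genes depends on the background.

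The cytoplasmic anchors gave 6 higher, 7 lower and 19 not called of 32 measured genes (40.6% called, against 34.9% of all genes). NUMB, an endocytic adaptor, rose 1.66-fold from 110 ± 10.1 to 184 ± 19.9 (log2 change 0.73, or 1.39 with a background level subtracted), and CTNNB1 (beta-catenin) rose by 0.59 on the log2 scale. EZR (ezrin), which binds the tails of ICAMs, fell 1.63-fold from 2232 ± 211 to 1375 ± 153 (SD, n = 3 each, limma adjusted p = 0.00102), with all 5 of its probe sets lower. ANK3, an ankyrin that binds the tails of L1-type molecules, fell by 0.59 on the log2 scale, and the scaffold PALS2 fell 1.48-fold. For ANK3, 2 of 5 probe sets were called lower.

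Of the membrane proteases and their inhibitors, 13 rose, 2 fell and 12 were not called of 27 measured genes (55.6% called, against 34.9% of all genes, median log2 change 0.32). ADAM8 rose 5.98-fold (380 to 2261), the gelatinase MMP2 3.36-fold (149 to 507, log2 change 1.75, or 2.37 with a background level subtracted) and the membrane-bound MMP14 2.47-fold (1050 to 2596.5). For MMP2, only 1 of 3 probe sets was called higher. The inhibitor TIMP1 rose 2.50-fold and the urokinase PLAU fell 2.74-fold. The sheddases ADAM17 and ADAM10, known to release the outer parts of L1CAM, ALCAM and ICAM1, were chosen after their values had been seen and rose 1.54-fold and 1.27-fold (limma adjusted p = 1.18e-04 and 0.00563). For ADAM10, 2 of 3 probe sets were called higher.

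**Figure D4:**
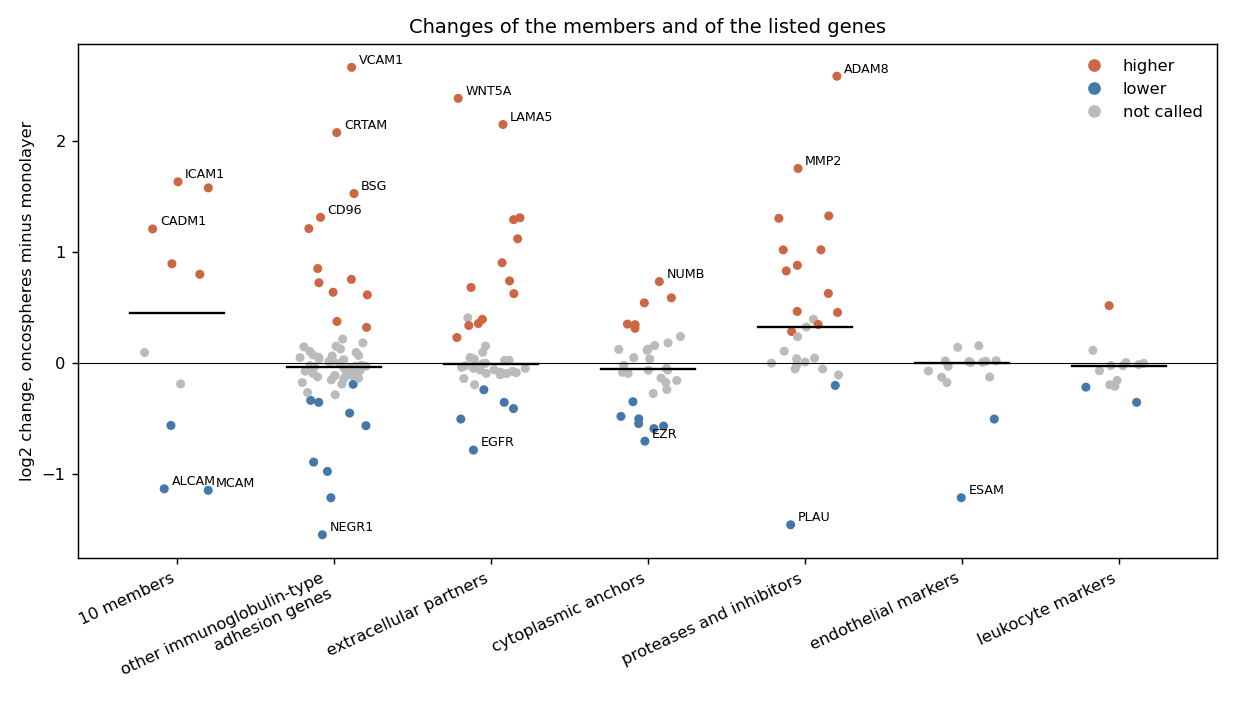
Log2 change (oncospheres minus monolayer) of the brightest probe set of each gene, for the members and 6 gene lists, with each list's median as a bar. Orange and blue points were called higher and lower, and grey points were not called. The medians were 0.45 for the members, 0.32 for proteases and inhibitors and within 0.06 of 0 for the 5 other lists.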

How the data were processed

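Total RNA (100 ng) of 6 cultures had been labelled with biotin and hybridised to Affymetrix Human Genome U133 Plus 2.0 arrays, 1 per culture. The authors normalized the raw data by RMA, and deposited, for each probe set, an intensity on a linear scale. The submitters' processing notes name affy, whose version is not given in the sources used here. Any rescaling or floor is likewise not known. RMA equalises the distribution of the arrays and compresses low values.

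Of 54675 probe sets, 62 controls were left out. Log2 was taken and oncospheres were compared with monolayer by the empirical Bayes test of limma 3.58.1 in R 4.3.3 (the study's methods name an empirical Bayes test), with Benjamini-Hochberg adjustment over 54613 probe sets and calls at an adjusted p below 0.05. Symbols came from the platform annotation, updated through gene identifiers. Of the probe sets, 41091 had 1 symbol, 1801 several and 11721 none. A gene was represented by its brightest probe set with 1 symbol. The code of the fit was run on simulated arrays with known changes in 200 of 19775 genes and independent noise. Since 34.9% of genes were called in the data, that run was unlike them and is no support for the calls. As all cultures came from 1 cell line, p-values reflect only how these cultures varied, and the number of arrays limits the precision.

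The members and gene lists were chosen with earlier results of these data known. Named were every member probe set and, of each list of partners, anchors, proteases and other adhesion molecules, the 5 called genes with the largest change and no overlap between groups, with the largest of the other direction where all went one way. Of the endothelial, leukocyte and neural lists, the rule named the brightest gene and calls of at least 1.5-fold. CDH5, VWF, KDR, PTPRC, CD14, ITGAM and CD8A were named outside this rule, as were the markers of the cell line. Not measured through a probe set of their own were 6 other adhesion genes, 2 anchors, 1 protease gene, 2 leukocyte markers and 1 neural marker. The alternatives were 3 normalizations (quantile, cyclic loess, median centring), a background level subtracted (the percentile 5 of each array, with a floor of 16), array weights, a filter on dim probe sets, a robust prior with an intensity trend, a block for the replicate number, averaging over a gene's probe sets, no _x_at and _s_at probe sets, an adjusted p below 0.01, adjustment over representative probe sets alone, a minimum of 1.5-fold and each array left out. Including probe sets with several symbols was an alternative chosen after seeing the data.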

Additional observations from a re-analysis of the deposited data

How the results depend on the processing

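All alternatives drew on the same arrays, and some reused the main fit with another threshold, adjustment or choice of probe sets. Including probe sets with several symbols could change only MCAM. The repeats counted here are therefore not independent tests. Of 198 repeats of the members' changes under the alternatives, 196 kept their side of the threshold and, with 1 exception, their direction. That exception was BCAM, which was called in neither fit (log2 change -0.19, and 0.04 without oncospheres 3). The remaining repeats were MCAM without _x_at and _s_at probe sets, where a dim probe set stood for it (log2 change 0.12, not called), and ICAM2, whose fall of 0.56 on the log2 scale stayed under 1.5-fold. Without _x_at and _s_at probe sets, 3 members rose, since ICAM1 and NRCAM had no other probe sets, and 5 member probe sets rose. The members' median log2 change was then 0.11. It was 0.53 with a background level subtracted, 0.28 when each gene's probe sets were averaged, and between 0.36 and 0.51 with 1 array left out, lowest without monolayer 2. Leaving out any 1 array kept the counts at 5 members higher and 3 lower, and at 12 and 6 probe sets. With a minimum of 1.5-fold, 3 member probe sets fell, and with probe sets of several symbols included, 10 fell. With the replicate number as a block, 6806 genes were called against 6894 without it, 6476 of them in both fits, and 5 members rose and 3 fell as before. Deviations of same-numbered arrays correlated weakly (r = 0.07 to 0.09), although each array correlated best with its own number, a hint from the data and not from the design. With 3 arrays in each group, a small change in ICAM3 or BCAM may not have been detectable. For the dim probe sets, low intensities add to this limit.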

Other observations

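A further 4 genes of the wider family were named after their values had been seen, and 3 of them were called. CD58, the ligand of the T cell molecule CD2, rose 2.31-fold, from 2041 ± 187 in monolayer to 4708 ± 112.9 in oncospheres (SD, n = 3 each), with all 5 of its probe sets higher (limma adjusted p = 1.92e-05). NECTIN3, an adhesion molecule of epithelial junctions that can bind CADM1, rose 1.53-fold, from 841 ± 72.3 to 1289 ± 141 (limma adjusted p = 0.00183), by 1 of its 2 probe sets. PVR (CD155), a nectin-like ligand of lymphocyte receptors, fell 1.96-fold, from 516 ± 20.6 to 263 ± 15.3, with 6 of its 7 probe sets lower (limma adjusted p = 2.65e-05). NECTIN1 was not called (181 and 205, log2 change 0.18, limma adjusted p = 0.0731).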
